A study of Mus musculus with 24 samples.

Results

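The comparison described here is that of torin1 with its vehicle DMSO in mouse embryonic fibroblasts (MEFs) that lack AMPK, taken across all genes. Its members are the 4 libraries labelled AMPK KO and torin1 and the 4 labelled AMPK KO and DMSO, 8 of the 24 libraries of the series. The AMPK KO cells are a prkaa1 prkaa2 double-knockout MEF line, in which both genes for the catalytic subunit of AMPK are disrupted, so the DMSO controls carry this deletion too. Each group holds 1 library of each of passages 16, 17, 18 and 19. The labels give no dose or time of treatment. WT MEFs with torin1 or DMSO (4 libraries each) serve here only as a second background, and since they were at passages 12 to 15 and each genotype is 1 line, genotype, line and passage cannot be told apart. Nothing in the labels says that the libraries came from separate cultures, and p values therefore measure the spread between these libraries.

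MTOR is a protein kinase of the complexes MTORC1 and MTORC2, and torin1 blocks its ATP site in both. Active MTORC1 holds the transcription factors TFEB and TFE3 in the cytosol, raises the translation of ATF4, a transcription factor for amino acid uptake and synthesis, and promotes the SREBP factors, which drive sterol and fatty acid synthesis. MTORC2 activates AKT, a kinase that keeps FOXO transcription factors out of the nucleus. AMPK senses low cellular energy and restrains MTORC1. The comparison asks which transcripts respond to MTOR inhibition in cells without that kinase.

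The 8 libraries held 29626094 to 32383609 estimated counts, with 1.17% to 1.54% in mitochondrially encoded genes. Levels of a gene are given in CPM, counts set to a common library size after TMM scaling, and different genes are compared in TPM, which also allow for transcript length. Prkaa1 (chromosome 15, 5143861 to 5181899, GRCm38) was at 73.3, 70.4, 73.0 and 66.9 CPM with DMSO at passages 16, 17, 18 and 19 and at 82.5, 75.7, 73.6 and 75.1 CPM with torin1, and was not called (log2 fold change 0.11). Prkaa2 (chromosome 4, 105029874 to 105109890) was at 2.34 to 4.48 CPM with DMSO and 4.42 to 5.71 CPM with torin1, and was called higher (log2 fold change 0.62, adjusted p = 0.0097) but not without AMPK KO DMSO replicate 4, the library of passage 18 (0.44, adjusted p = 0.075). Transcripts of both genes were thus still counted, and since counts per gene do not show the loss of an exon, they do not check the label. Of the fibroblast markers, Vim (2106 to 2664 TPM with DMSO), Col1a1 (257 to 317 TPM), Twist1 (20.6 to 21.6 TPM) and Pdgfrb (12.5 to 13.5 TPM) were present, whereas Lum was at 0 in all 8 libraries and Dcn, Fap and Thy1 reached at most 0.348, 0.0782 and 0.669 TPM. Among markers of other cells, Adgre1 (blood), Myod1 and Myog (muscle), Krt5 (epithelial) and Snap25 (neural) had no count in any of the 8 libraries, whereas other members of the same lists were counted. Tubb3 of the neural list was at 83.1 to 90.4 TPM with DMSO and 56.4 to 68.1 TPM with torin1, and Map2 at 11 to 16.2 and 19.9 to 22 TPM. Epcam (epithelial) was at 1.81 to 2.38 and 3.1 to 4.67 TPM, Cd68 (blood) at 1.64 to 3.04 and 2.74 to 3.82 TPM, and Des (muscle) at 1.19 to 2.03 and 2.15 to 2.96 TPM. The neural list held 0.0098% to 0.0106% of all TPM with DMSO and 0.00786% to 0.00882% with torin1, and the epithelial, blood and muscle lists held at most 0.000609%, 0.00039% and 0.000331% in any library. The part of such cells in the results was not tested. In bulk RNA, fewer cells of a kind and less RNA per cell cannot be told apart.

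Torin1 changed a large part of the transcriptome of AMPK KO MEFs. Of 15828 genes tested among 55487, 6879 (43.5%) passed both limits, an adjusted p under 0.05 and at least a 1.2-fold change, and are referred to as called. All adjusted p values are from edgeR's quasi-likelihood test after Benjamini-Hochberg correction. Of the called genes, 4096 were higher with torin1 (25.9% of the genes tested) and 2783 were lower (17.6%). Counts of members in the gene lists below are to be read against these shares. Changes of at least 4-fold were found in 127 called genes, 84 higher and 43 lower. The torin1 and DMSO libraries did not overlap in 6285 of the called genes (91.4%) and in 53.8% of all genes tested. The median log2 fold change of all genes tested was 0.06. With libraries scaled by size alone it was 0.117, and 68.0% instead of 59.5% of the called genes were higher.

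**Figure D1:**
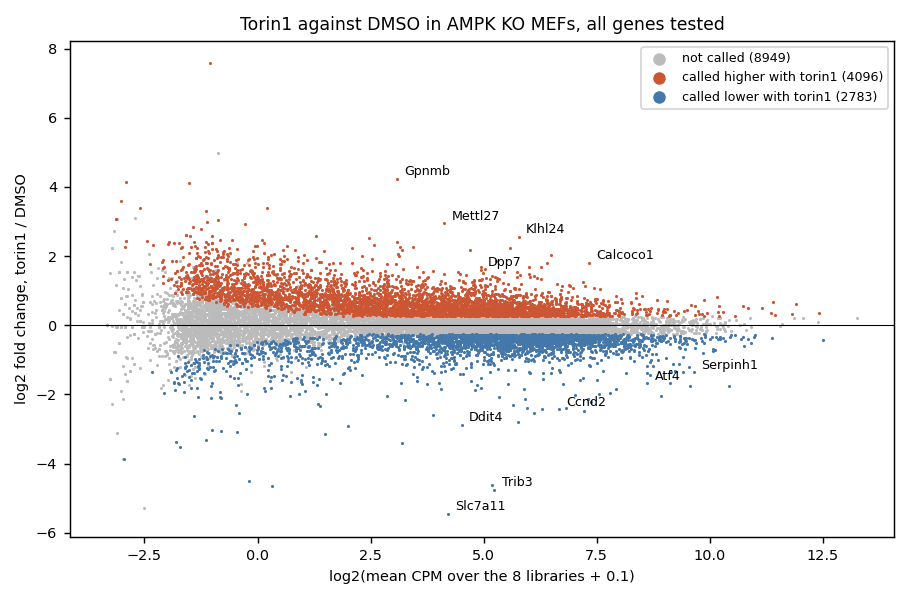
Each point is 1 of the 15828 genes tested, with its mean level over the 8 AMPK KO libraries on the horizontal axis (log2 CPM) and the log2 fold change of torin1 over DMSO on the vertical axis. The 4096 genes called higher and the 2783 called lower are coloured and the 8949 not called are grey, and labelled falls such as Slc7a11 (-5.46) lie farther from 0 than the labelled rise of Gpnmb (4.24).

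Gpnmb, a transmembrane glycoprotein of lysosomes and melanosomes, had the largest rise among called genes with at least 5 CPM on average and no overlap between the groups. Gpnmb (chromosome 6, 49036546 to 49070929) was at 0.641, 0.809, 0.84 and 1.08 CPM with DMSO at passages 16 to 19 and at 21.8, 7.56, 20.7 and 13.7 CPM with torin1. Every torin1 library stood above every DMSO library, and the torin1 library of passage 17 was the lowest of its group (log2 fold change 4.24, SE 0.37, adjusted p = 1.2e-09). Klhl24, an adaptor of a ubiquitin ligase, was at 16.9, 15.5, 15.7 and 14.8 CPM with DMSO and at 107, 83.0, 93.6 and 88.8 CPM with torin1, a 5.91-fold rise (adjusted p = 3.1e-14). Mettl27, a protein of the methyltransferase-like family, rose from 3.98 ± 0.671 to 30.7 ± 3.53 CPM (SD, n = 4 each). The next rises were those of Megf10, an engulfment receptor (log2 fold change 2.53), Coq8a, an atypical kinase of coenzyme Q synthesis (2.41), Ogdhl, a relative of the 2-oxoglutarate dehydrogenase subunit (2.31), Mturn (2.28) and Cyp4v3, a fatty acid hydroxylase (2.27). Megf10 had the least certain value of these, with an SE of 0.44 and an adjusted p of 3e-05.

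The largest falls were those of Slc7a11, Trib3 and Chac1. Slc7a11 (chromosome 3, 49892526 to 50443614), which encodes the cystine transporter xCT, was at 46.2, 29.8, 39.7 and 28.8 CPM with DMSO at passages 16 to 19 and at 1.11, 0.84, 0.451 and 0.885 CPM with torin1. The fall was 43.9-fold (log2 fold change -5.46, SE 0.47, adjusted p = 1e-09). Trib3, a pseudokinase induced by amino acid shortage, was at 63.9, 54.3, 93.2 and 78.1 CPM with DMSO and at 2.73, 2.22, 3.16 and 2.59 CPM with torin1 (-4.76, SE 0.31, adjusted p = 1.3e-11). Chac1, which degrades glutathione, fell from 69.9 ± 13.1 to 2.86 ± 0.177 CPM (SD, n = 4 each). In these 3 genes the groups lay far apart, the highest torin1 library of each being well below its lowest DMSO library. Adm2, a peptide hormone (log2 fold change -3.4), Ddit4, an inhibitor of MTORC1 (-2.87), Slc6a9, a glycine transporter (-2.78), Cth, of cysteine synthesis (-2.6), and Psph, of serine synthesis (-2.55), followed. Cth was at 16.0 to 41.9 CPM in the DMSO libraries, the highest at passage 16, and had the largest adjusted p of the falls named here, 2.7e-05.

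**Figure D2:**
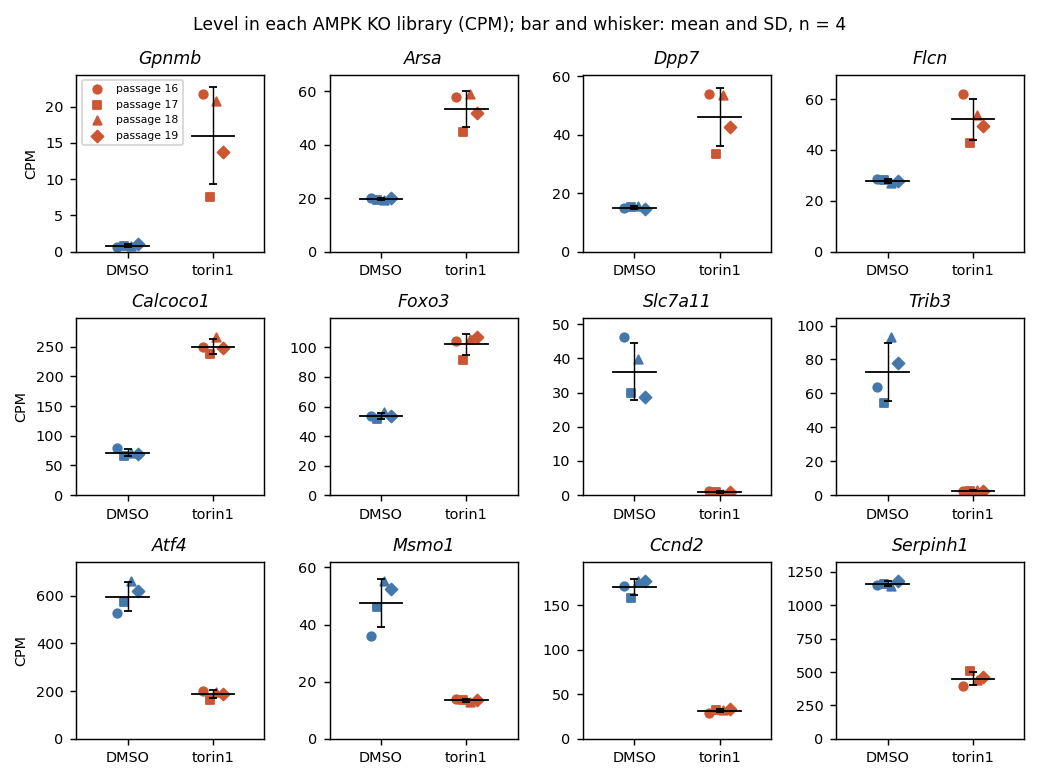
Level of 12 genes in each of the 8 AMPK KO libraries (CPM, linear axis from 0), with 1 symbol for each of passages 16 to 19 and the mean and SD of each group of 4. The groups do not overlap in any gene shown, and the torin1 library of passage 17 is the lowest of its group for Gpnmb, for example, at 7.56 CPM.

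Lysosomal genes rose in large part. TFEB and TFE3 recognise the CLEAR element, whose centre is the E-box CACGTG, before genes for lysosomal enzymes and membrane proteins. The following stretches (RefSeq, GRCm38.p6, minus strand) lie before a start of the named hydrolases and membrane proteins with the largest rises that hold this E-box, and are shown as examples of the letters searched for. They are at chr15:89477425-89477470 for Arsa, chr2:25356370-25356435 for Dpp7 and chr7:126583322-126583387 for Cln3, are written 5′ to 3′ along the gene, and have the E-box in capitals.
Arsa: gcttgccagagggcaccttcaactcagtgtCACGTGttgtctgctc
Dpp7: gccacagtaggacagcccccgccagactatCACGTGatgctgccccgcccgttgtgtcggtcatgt
Cln3: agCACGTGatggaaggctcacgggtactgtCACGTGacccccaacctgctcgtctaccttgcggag
The E-box nearest to the start began 16 bases before that of Arsa, 73 before that of Dpp7 and 121 before 1 of the 2 starts listed for Cln3. That start lies inside the gene as annotated (chromosome 7, 126571207 to 126585817), and the 250 bases before the other start, at its 5′ end, held no CACGTG. The longer core TCACGTGA, which contains the E-box, was found in the same windows of Dpp7 and Cln3 and not in Arsa. The 250 bases before the start of Ctns, Atp6v0d1 and Atp6ap2, which also rose, and of Atp6v0e and Atp6v0c, which fell, held no CACGTG. On either strand, CACGTG was found in these 250 bases for 6.86% of the 27025 genes of the promoter table and for 9.79% of the 10829 tested genes in it. It was found for 16 of 42 lysosomal and V-ATPase genes called higher (38.1%) and for 6 of 39 that were not (15.4%). Over all genes, it was found for 11.5% of those higher, 228 of the 2080 lower with an entry and 8.46% of those not called, and TCACGTGA for 2.38%, 1.11% and 1.6%. A match is a description of the letters and does not show binding.

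Of 51 lysosomal hydrolases and cofactors tested (Ctss was below the count filter), 27 were higher (52.9%, against 25.9% of all genes tested) and 1 was lower (1.96%, against 17.6%). Their median log2 fold change was 0.32, against 0.06 for all genes. Dpp7, a dipeptidyl peptidase, was at 15.0, 15.2, 15.6 and 14.6 CPM with DMSO at passages 16 to 19 and at 54.1, 33.5, 53.6 and 42.8 CPM with torin1 (log2 fold change 1.61, SE 0.12, adjusted p = 1.1e-10). Arsa, arylsulfatase A, was at 20.1, 19.4, 19.2 and 20.1 CPM with DMSO and at 57.8, 44.6, 59.1 and 51.7 CPM with torin1 (1.44, SE 0.089, adjusted p = 5.1e-12). The DMSO libraries lay close together in both genes, and all torin1 libraries were higher, with passage 17 the least so. Hexa, a beta-hexosaminidase subunit, was at 66.4, 45.8, 67.3 and 59.2 CPM with torin1 against 38.9 ± 2.22 CPM with DMSO, and Ctsa, cathepsin A, at 205, 162, 202 and 181 CPM against 109 ± 1.22 CPM (SD, n = 4). Idua, a glycosaminoglycan hydrolase, had a log2 fold change of 2.24 at a low level (1.44 ± 0.356 to 6.81 ± 1.48 CPM). Not every enzyme moved, as Ctsb (0.02), Ctsc (0.02), Ctsl (0.11) and Gusb (-0.14) were not called, and Acp5, an acid phosphatase, fell (-1.41). No hydrolase was called lower with at least 10 counts required in every library, or from the compared libraries alone. As a group the hydrolases held 0.199% to 0.221% of all TPM with DMSO and 0.256% to 0.313% with torin1, without overlap. Such shares need not follow the calls. That of cytosolic ribosomal proteins, mostly not called, also rose without overlap (16.8% to 17.7% and 18.5% to 19.5%). That of heat shock chaperones, mostly called lower, did not fall (1.74% to 1.84% and 1.79% to 1.9%).

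Of 33 lysosomal membrane proteins, 21 were higher (63.6%, against 25.9% of all genes) and 1 was lower (3.03%, against 17.6%), with a median log2 fold change of 0.37. Cln3, whose loss causes a neuronal storage disease, was at 4.8 to 6.41 CPM with DMSO and 12.6 to 14.9 CPM with torin1, and Ctns, the cystine exporter, at 6.21 to 8.6 and 13.1 to 19.5 CPM (log2 fold changes 1.22 and 1.13, adjusted p = 1.1e-07 and 7.4e-08). Mcoln1, a calcium channel of lysosomes, rose from 32.9 ± 2.14 to 69.4 ± 7.94 CPM, and Npc1, the cholesterol exporter, from 28.5 ± 1.92 to 52.0 ± 6.55 CPM (SD, n = 4 each). The member that fell was Tpcn1, another ion channel (-0.45). Of 20 subunits and accessory proteins of the V-ATPase, the proton pump of lysosomes, 6 were higher (30%, against 25.9% of all genes tested) and 3 lower (15.0%, against 17.6%), with a median of 0.19. Atp6ap2 (0.83) and Atp6v0d1 (0.66) rose, while Atp6v0e (-0.53) and Atp6v0c (-0.4) of the same membrane sector fell. The torin1 library of passage 17 was the lowest of the 4 in 52 of the 54 lysosomal and V-ATPase genes called higher (96.3%) and in 58.1% of all genes called higher. Without it, 26 hydrolases and 20 membrane proteins were called higher.

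The transcripts of TFEB and TFE3 themselves fell. Tfeb was at 10.4, 12.7, 13.9 and 13.4 CPM with DMSO at passages 16 to 19 and at 8.63, 9.18, 9.74 and 9.13 CPM with torin1, a fall in which the groups did not overlap (log2 fold change -0.46, SE 0.096, adjusted p = 0.00025). Tfe3 fell by the same amount, from 82.5 to 96.3 CPM with DMSO to 63.2 to 68.0 CPM with torin1, and Mitf of the same family was not called (0.32, adjusted p = 0.096), except with a block for passage (adjusted p = 0.039). The genes that pass amino acid signals to MTORC1 at the lysosome were mixed, with 14 of 44 tested higher (31.8%, against 25.9% of all genes) and 9 lower (20.5%, against 17.6%), shares near those of all genes. Fnip1 and Flcn, whose products together activate the RagC and RagD GTPases, rose. Fnip1 was at 25.7, 20.7, 20.6 and 20.6 CPM with DMSO and at 67.4, 43.8, 59.7 and 56.0 CPM with torin1 (1.37, SE 0.11, adjusted p = 3e-10), and Flcn at 28.6, 28.0, 27.0 and 27.7 and 62.2, 42.7, 53.8 and 49.4 CPM (0.9, SE 0.077, adjusted p = 8.1e-10). Rragb (1.2), Rragd (0.49) and Rragc (0.53) rose and Rraga fell (-0.41). The stress-induced inhibitors of MTORC1 Ddit4 (-2.87) and Sesn2, a leucine sensor (-2.41), fell, as did Eif4ebp1, the repressor of cap-dependent translation that MTORC1 inactivates (-1.33). Of the kinase complexes, Rictor of MTORC2 rose (0.44), while Mtor (0.19, adjusted p = 0.0003) and Rptor (-0.24, adjusted p = 6.5e-05) passed the p threshold and stayed under the fold limit.

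Of 52 genes of autophagy, the delivery of cytoplasm to lysosomes, 22 were higher (42.3%, against 25.9% of all genes) and 6 lower (11.5%, against 17.6%). The median log2 fold change was 0.21. Calcoco1, a receptor for autophagy of the endoplasmic reticulum, was at 79.2, 66.2, 71.4 and 69.9 CPM with DMSO at passages 16 to 19 and at 249, 237, 266 and 247 CPM with torin1 (1.8, SE 0.06, adjusted p = 2.2e-16). Wdr45, which binds the growing membrane, rose from 18.6 to 22.6 CPM with DMSO to 44.0 to 46.0 CPM with torin1. The receptor Sqstm1 (0.74), the lipidated tag Map1lc3b (0.63), the kinase Ulk2 (0.89) and Atg14 of the lipid kinase complex (0.91) also rose, whereas Ulk1 was not called (0.06). Trp53inp2 (-1.12) and the protease Atg4a (-0.6) had the largest falls, and Becn1 (-0.32), Atg5 (-0.47), Atg16l1 (-0.29) and Atg4d (-0.44) fell as well. In summed level, the list went from 0.25% to 0.275% of all TPM with DMSO to 0.318% to 0.355% with torin1.

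The ATF4 and amino acid response had the largest share of members lower among the 30 lists, with 33 of 36 genes tested lower, none higher and a median log2 fold change of -1.97. ATF4 and its partners bind a composite site of the letters TGATGNAA. A stretch before the start of Slc7a11 (chr3:50443623-50443690, minus strand, RefSeq, GRCm38.p6) is shown because this gene fell most and holds these letters on both strands, in capitals.
Slc7a11: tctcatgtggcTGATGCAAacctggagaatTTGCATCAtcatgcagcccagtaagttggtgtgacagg
The nearer match began 47 bases before the start. TGATGNAA was found on either strand for 8 of 31 genes of the list in the promoter table (25.8%), 2.28% of the tested genes and 3.17% of the genes called lower. Trib3 held no match.

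Atf4 itself was at 527, 574, 664 and 622 CPM with DMSO at passages 16 to 19 and at 202, 161, 196 and 187 CPM with torin1 (log2 fold change -1.68, SE 0.093, adjusted p = 1.2e-12). The torin1 libraries were alike and all far below the DMSO libraries. Several transporters fell, among them Slc7a5 and Slc3a2, which form the carrier of large neutral amino acids (-2.04 and -1.38), Slc7a1 for arginine and lysine (-1.98) and Slc1a5 for glutamine (-1.09). Serine and one-carbon synthesis fell with them, in Phgdh (-1.11), Psat1 (-1.77), Shmt2 (-1.36) and Mthfd2 (-2.49), as did Asns, asparagine synthetase (-1.95). Gdf15, a stress cytokine, fell from 2.2 ± 0.744 to 0.0833 ± 0.0286 CPM (SD, n = 4 each). Slc7a3, another transporter of arginine and lysine (0.29), Ppp1r15a (0.12) and Cbs (0.17) were the members not called. The list held 0.6% to 0.701% of all TPM with DMSO and 0.224% to 0.235% with torin1.

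Of 23 cytosolic aminoacyl-tRNA synthetase genes, 17 were lower and 1 was higher (median -0.55). Yars, for tyrosine, was at 279, 265, 281 and 267 CPM with DMSO at passages 16 to 19 and at 93.3, 87.5, 90.9 and 90.8 CPM with torin1 (-1.59, SE 0.1, adjusted p = 9.4e-12), and Cars, for cysteine, fell from 213 to 231 CPM with DMSO to 74.6 to 79.0 CPM with torin1. Nars (-1.43) and Aars (-1.31) were close to these. Dars (0.07), Kars (0.05), Rars (-0.14), Vars (-0.13) and the scaffold Aimp1 (0.15) were not called. Qars, for glutamine, was the member higher, at 125 to 141 CPM with DMSO and 153 to 167 CPM with torin1 (0.28, adjusted p = 2.8e-06), close to the fold limit, under which it fell without the DMSO library of passage 16 or 18 or the torin1 library of passage 17 (0.2 each) or 19 (0.22).

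Most genes of sterol synthesis fell. Of 25 genes of cholesterol synthesis and uptake, 21 were lower and none higher (median log2 fold change -0.68). Msmo1, a sterol oxidase, was at 36.1, 46.3, 55.4 and 52.3 CPM with DMSO at passages 16 to 19 and at 14.1, 13.7, 12.8 and 13.6 CPM with torin1 (-1.81, SE 0.22, adjusted p = 2.8e-07). The DMSO library of passage 16 was below the other DMSO libraries and still well above all torin1 libraries. Idi1 (-1.62) and Sqle (-1.38), of earlier steps of the same synthesis, fell as well. Srebf2, which encodes the main factor of this pathway, was at 278, 346, 397 and 385 and 207, 228, 230.2 and 228 CPM (-0.65, adjusted p = 0.00047), while Srebf1 rose slightly, from 99.2 to 122 CPM with DMSO to 134 to 147 CPM with torin1 (0.29, adjusted p = 0.0013). Of 13 genes of fatty acid synthesis, 7 were lower and Srebf1 was the one higher. The rise of Srebf1 fell under the fold limit without the DMSO library of passage 16 (0.18) or 18 (0.26) or the torin1 library of passage 17, 18 or 19 (0.25 each), which leaves no member of the list higher. Elovl6, an elongase, was at 31.0 to 51.9 CPM with DMSO and 9.99 to 15.3 CPM with torin1, and Scd2, a desaturase, at 664 to 978 and 231 to 293 CPM (-1.86 and -1.68). Fasn (-0.83) and Acaca (-0.89) fell less. Without the DMSO library of passage 16, the median of the cholesterol list was -0.8.

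Of 23 genes of glycolysis and glucose transport, 17 were lower and 2 higher (median log2 fold change -0.41). Pgam1, phosphoglycerate mutase, was at 781, 912, 882 and 932 CPM with DMSO at passages 16 to 19 and at 366, 449, 389 and 406 CPM with torin1 (-1.12, SE 0.072, adjusted p = 8.6e-12). Hk2, a hexokinase (-1.01), Ldha, lactate dehydrogenase (-0.96), and Slc2a1, the glucose transporter (-0.72), fell, and Pdk1, which restrains the entry of pyruvate into mitochondria, rose from 4.01 to 6.1 CPM with DMSO to 9.3 to 12.8 CPM with torin1 (1.06). Eno2 rose with overlapping libraries (10.4 to 12.8 and 11.9 to 19.0 CPM). Hif1a fell from 87.5 to 96.0 CPM with DMSO to 69.0 to 76.1 CPM with torin1 (-0.33). Among 15 HIF1 targets outside glycolysis, 6 were lower (40%, against 17.6% of all genes) and 3 higher (20%, against 25.9%). Vegfa, the vascular growth factor, was at 73.8, 68.6, 80.9 and 69.7 and 33.3, 30.7, 27.6 and 28.6 CPM (-1.29, adjusted p = 1.5e-08), whereas Ndrg1 (0.95) and the demethylase Kdm3a (0.76) rose. Of 29 genes of the pentose phosphate path and nucleotide synthesis, 12 were lower (41.4%, against 17.6%) and 3 higher (10.3%, against 25.9%). Mthfd1l (-0.91) and G6pdx (-0.73) fell and the purine enzymes Paics (0.42) and Adss (0.41) rose.

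Most nuclear genes of the respiratory chain in mitochondria were lower. Of 75 subunits of the respiratory chain and ATP synthase, 52 were lower and none higher (median log2 fold change -0.41). Uqcrq, a small subunit of complex III, was at 136, 124, 128 and 126 CPM with DMSO at passages 16 to 19 and at 49.2, 59.4, 52.8 and 55.1 CPM with torin1 (-1.25, SE 0.063, adjusted p = 3.2e-13), and Uqcr11 of the same complex fell by 0.96 on the log2 scale. The larger subunits Ndufs1 (0.02), Sdha (0.11) and Uqcrc2 (-0.06) were not called. Of 78 mitochondrial ribosomal proteins, 35 were lower and 3 higher (median -0.25). Mrpl20 was at 78.7 to 86.8 CPM with DMSO and 40.6 to 44.0 CPM with torin1 (-0.98), Mrpl34 fell by 0.85 on the log2 scale, and Mrps30 (0.39) and Mrpl24 (0.31) rose.

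Transcripts of cytosolic ribosomal proteins, which MTORC1 controls mainly at the level of translation, were for the most part not called. Of 79, 6 were higher and 1 was lower, and the median of 0.05 ranged from -0.02 to 0.11 over the alternatives, and was below 0 in those that left out the DMSO library of passage 16 or 18 or the torin1 library of passage 17 or 19. Rpl10a was at 621, 677, 657 and 676 CPM with DMSO at passages 16 to 19 and at 991, 952, 953 and 1011 CPM with torin1 (0.57, SE 0.038, adjusted p = 1.3e-11), Rps20 rose by 0.41 and Rpl27 fell by 0.36 on the log2 scale. These genes have many processed copies in the genome, and how reads were shared with the copies was not tested. Of 44 translation factors, 6 were higher (13.6%, against 25.9% of all genes) and 15 lower (34.1%, against 17.6%). Pdcd4, an inhibitor of the helicase eIF4A, rose from 39.7 to 48.4 CPM with DMSO to 108 to 111 CPM with torin1 (1.35, adjusted p = 3.5e-11), and Eif4b, a helper of that helicase, from 757 to 889 CPM with DMSO to 1396 to 1475 CPM with torin1 (0.82). Eif4e, which binds the cap (-0.77), and Eif2s2, a subunit of eIF2 (-0.86), fell. Of 61 factors that build ribosomes, 34 were lower and 2 higher (median -0.31). Bysl was at 98.8 to 119 CPM with DMSO and 61.1 to 63.7 CPM with torin1 (-0.85), Grwd1 fell by 0.77 on the log2 scale, and Polr1c, shared by RNA polymerases I and III, rose by 0.66.

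Genes of protein folding and breakdown fell in several compartments. In the endoplasmic reticulum, 17 of 26 chaperone and unfolded protein response genes were lower and 1 higher (median log2 fold change -0.42). Herpud1, of the disposal of misfolded proteins of this compartment, was at 75.9, 81.4, 112 and 102 CPM with DMSO at passages 16 to 19 and at 25.9 ± 1.96 CPM with torin1 (SD, n = 4; log2 fold change -1.84, SE 0.11, adjusted p = 3.1e-12). Xbp1, a transcription factor of the response, fell from 41.9 to 46.8 CPM with DMSO to 12.1 to 14.8 CPM with torin1 (-1.72). Dnajb9 was the member higher, with overlapping libraries (8.6 to 11.5 and 11.2 to 13.7 CPM), and leaving out any 1 of 5 libraries ended its call. Of 33 proteasome subunits, 26 were lower and none higher (median -0.44), Psmd7 going from 207 to 226 CPM with DMSO to 125 to 139 CPM with torin1 and Psmb3 from 125 to 140.4 CPM with DMSO to 76.1 to 88.7 CPM with torin1. Of 26 cytosolic and mitochondrial chaperones, 16 were lower and 1, Cct4 of the chaperonin ring (0.46), was higher. The inducible Hspa1b was at 128, 119, 101 and 109 and 36.8, 54.5, 44.5 and 40.7 CPM (-1.37, adjusted p = 1.9e-08), and Hspa1a, its near-identical neighbour with which reads may be shared, fell by 1.11 on the log2 scale. Of 20 NRF2 genes, which answer oxidants, 12 were lower and none higher, among them Nfe2l2 itself (-0.41), Hmox1 (-1.0) and Osgin1 (-0.94).

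FOXO factors, their targets and the insulin receptor genes rose in the main, with 15 of 24 higher and 3 lower (median log2 fold change 0.41). Foxo3 was at 53.6, 51.3, 56.2 and 53.4 CPM with DMSO at passages 16 to 19 and at 104, 91.6, 106 and 107 CPM with torin1 (0.93, SE 0.056, adjusted p = 3.9e-12). Irs2, the adaptor of the insulin receptor, was at 68.3, 68.1, 60.5 and 69.1 and 161, 140.2, 136 and 146 CPM (1.13, SE 0.07, adjusted p = 4.9e-12). Ccng2 (1.55), a cyclin of resting cells, Fbxo32, the ubiquitin ligase of muscle wasting (1.53), Insr (0.75) and Foxo1 (0.7) rose. Klf15 had the largest value of the list (2.2) at a low level (0.141 ± 0.0286 to 0.661 ± 0.279 CPM, SD, n = 4 each). The members that fell were Bcl6 (-1.74), Gadd45a (-1.19) and Sod2 (-0.57).

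Cell cycle lists had shares of genes higher near the 25.9% of all genes tested. Among 16 genes of the G1 phase, 4 were higher (25%) and 5 lower (31.2%, against 17.6% of all genes). Ccnd2, a D-type cyclin that lets cells leave G1, was at 172, 158, 178 and 177 CPM with DMSO at passages 16 to 19 and at 29.0, 32.5, 32.0 and 33.0 CPM with torin1 (log2 fold change -2.44, SE 0.074, adjusted p = 3.9e-17), and Ccnd1 at 203 to 299 and 104 to 166 CPM (-1.0). Rb1, which holds cells in G1, rose from 10.1 to 14.6 CPM with DMSO to 28.1 to 38.7 CPM with torin1 (1.47), Myc rose by 0.67, and Cdkn1b was not called (0.08, adjusted p = 0.3). Of 48 DNA replication genes, 10 were higher (20.8%), such as Pole (0.6) and Cdt1 (0.54), and 7 lower (14.6%), such as E2f2 (-1.02) and Ccne1 (-0.87). Of 43 genes of mitosis, 12 were higher (27.9%) and 1 lower (2.33%), and the number higher ranged from 8 to 18 over the alternatives. Ndc80 of the kinetochore was at 74.1, 69.4, 72.1 and 70.8 and 139, 126, 134 and 135 CPM (0.9, SE 0.046, adjusted p = 3.9e-13), Cenpe, a kinetochore motor, rose by 0.76 and Spc24 fell by 0.3 on the log2 scale. Mki67, the usual marker of cycling cells, rose by 0.46. Of 20 p53 targets, 10 were lower (50%, against 17.6% of all genes) and 1 higher (5%, against 25.9%). Sesn2 (-2.41) and the nuclease Aen (-1.16) were lowest, and Pmaip1, a promoter of cell death, was higher (0.5).

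**Figure D3:**
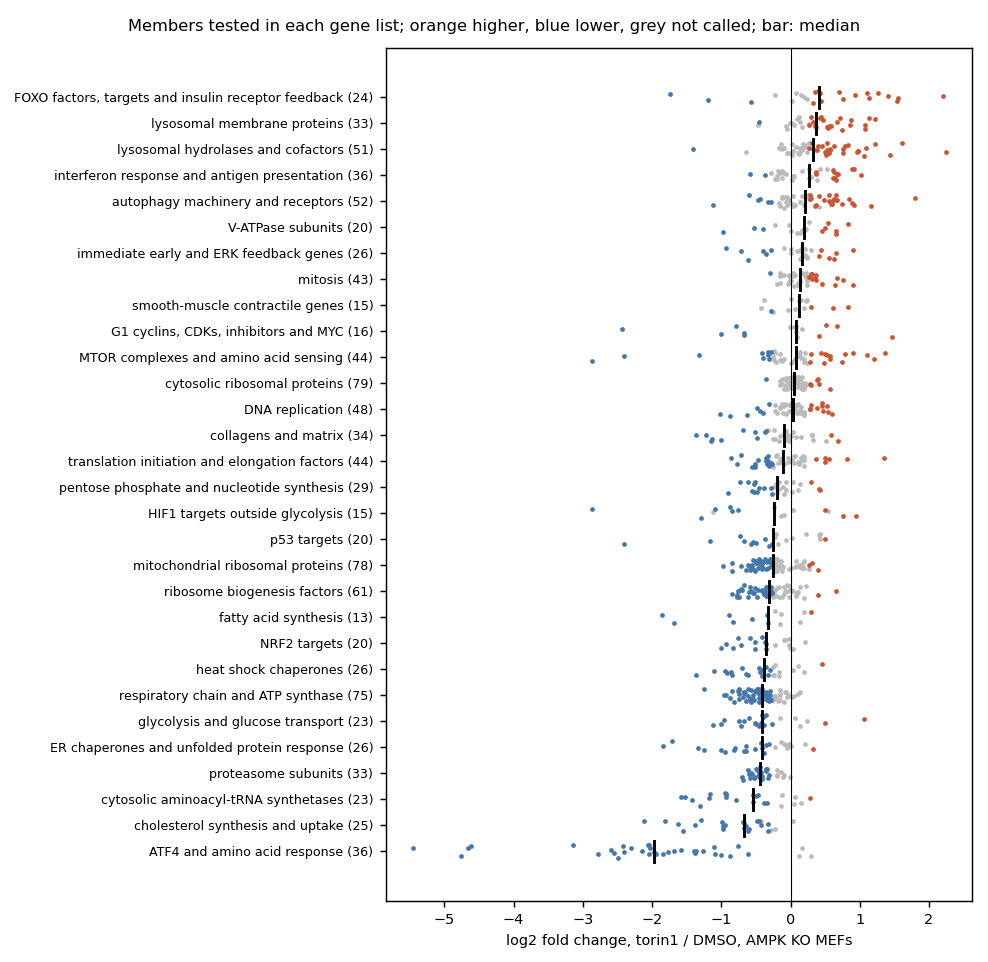
Log2 fold change of torin1 over DMSO in AMPK KO for the tested members of 30 gene lists (1 point per gene) with each list's median. The ATF4 list lies farthest below 0, at a median of -1.97, and the FOXO list (0.41) and the lists of lysosomal membrane proteins (0.37) and hydrolases (0.32) lie farthest above.

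Of 34 matrix genes, 2 were higher (5.88%, against 25.9% of all genes) and 10 lower (29.4%, against 17.6%). Col1a1, the main chain of type I collagen, was at 893, 1017, 1131 and 1142 CPM with DMSO at passages 16 to 19 and at 319, 545, 459 and 475 CPM with torin1 (-1.22, SE 0.26, adjusted p = 0.00028), and Serpinh1, the collagen chaperone, at 1142 to 1185 and 394 to 509 CPM (-1.36). Fn1, fibronectin, rose from 1941 to 2222 CPM with DMSO to 3173 to 3521 CPM with torin1 (0.68) and Tnc, tenascin, by 0.58 on the log2 scale. Of 15 smooth-muscle contractile genes, 3 were higher (20%, against 25.9% of all genes) and 1 lower (6.67%, against 17.6%). Myh9 (0.61) and Flna (0.3) rose, and Tpm1 fell with overlapping libraries (-0.28). Flna was under the fold limit without the DMSO library of passage 16 (0.26) or 18 (0.25) or the torin1 library of passage 17 (0.23) or 19 (0.24), and Tpm1 without the torin1 library of passage 16 (-0.24). Of 36 interferon and antigen presentation genes, 12 were higher (33.3%, against 25.9% of all genes) and 2 lower (5.56%, against 17.6%), with a median of 0.26. Their summed share of all TPM did not rise, with a mean of 0.34% in both groups. At passages 16 to 19 it was 0.367%, 0.27%, 0.394% and 0.327% with DMSO and 0.363%, 0.268%, 0.409% and 0.32% with torin1. In both groups it was lowest at passage 17 and highest at passage 18, and the part of passage was not tested. H2-T23, a class I-like molecule, was at 6.86 to 9.33 CPM with DMSO and 14.0 to 19.7 CPM with torin1 (1.02), Nlrc5, the activator of class I genes, rose by 0.68 on the log2 scale, and the 2 that fell, Isg15 (-0.59) and Psmb10 (-0.37), had overlapping libraries. The list's number higher ranged from 7 to 16 over the alternatives. Of 26 immediate early and ERK feedback genes, 6 were higher (23.1%, against 25.9% of all genes), among them Dusp6 (0.66) and Dusp4 (0.62), phosphatases of ERK kinases, and 6 lower (23.1%, against 17.6%), among them Jund (-0.72) and Fosl1 (-0.61).

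Measured in TPM, the largest gains and losses were of abundant genes. The largest gains were those of Rpl10a, Vim, of intermediate filaments, Actg1 and Eef2, the elongation factor. Vim was at 2472 ± 256 TPM with DMSO and 3654 ± 146 TPM with torin1, and Eef2 at 2634 ± 59.8 and 3634 ± 56.1 TPM (SD, n = 4 each). Actb and Actg1, the cytoplasmic actins, moved in opposite directions, Actb falling from 5673 to 7024 CPM with DMSO to 4217 to 5512 CPM with torin1 (-0.42) and Actg1 rising from 2771 to 3486 CPM with DMSO to 3669 to 4223 CPM with torin1 (0.31). The call of Actg1 was lost without the DMSO library of passage 16 (0.2, adjusted p = 0.1) or 18 (0.26, adjusted p = 0.053) and without the torin1 library of passage 17 (0.24, adjusted p = 0.071) or 19 (0.25, adjusted p = 0.061). Lgals1, galectin-1 (-0.51), and Gapdh, of glycolysis (-0.38), fell without overlap. CT010467.1 was called lower (-1.75, adjusted p = 0.0035) through 1 library. It was at 736, 713, 701 and 6329 CPM with DMSO at passages 16 to 19 and at 726, 679, 557 and 557 CPM with torin1, and without the DMSO library of passage 19 the log2 fold change was -0.19 (adjusted p = 0.39).

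**Figure D4:**
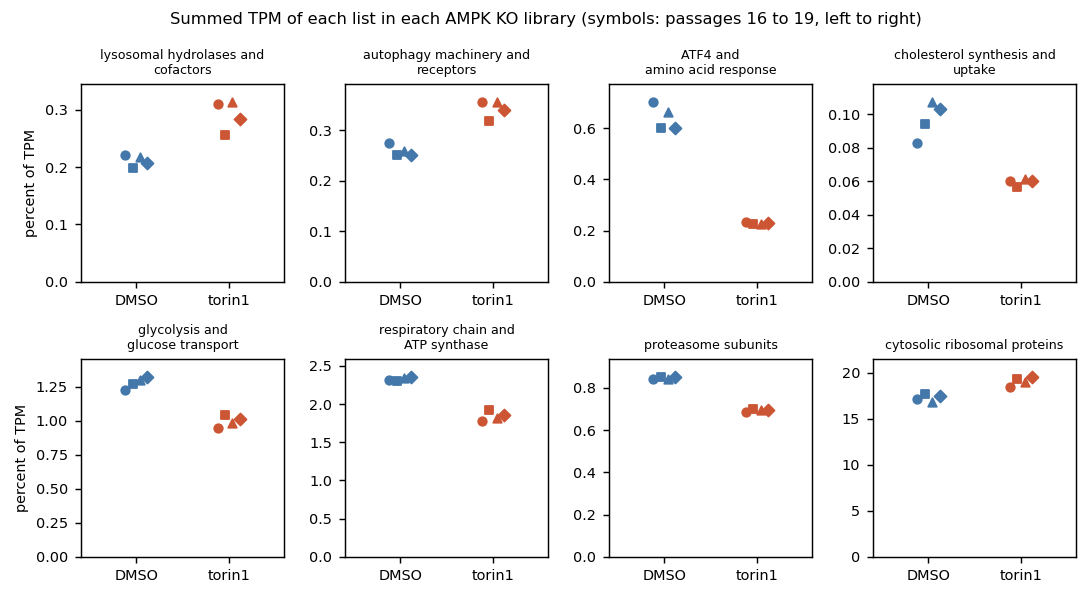
Share of all TPM held by 8 gene lists in each of the 8 AMPK KO libraries (percent), with 1 symbol per passage. The groups do not overlap for the lysosomal hydrolases (0.199 to 0.221% with DMSO, 0.256 to 0.313% with torin1) or for the ATF4 list (0.6 to 0.701% and 0.224 to 0.235%).

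The torin1 response of the AMPK KO libraries was set beside that of the WT libraries, in which 7540 genes (47.6%) were called. Of the 4096 genes higher in AMPK KO, 3139 (76.6%, and 74.7% of the WT rises) were higher in WT too. Of the 2783 lower, 2223 (79.9%, and 66.6% of the WT falls) were lower in WT too. Calls in opposite directions were rare, with 10 genes higher and 12 lower in AMPK KO. The difference itself, tested as the interaction of torin1 and genotype, was called in 1119 genes (7.07%), 657 with a log2 fold change above that of WT and 462 below it. The direction of this split was not stable, since the share above WT ranged from 26.8% to 64.9% over the alternatives. The median log2 fold changes in WT were 0.33 for the hydrolases, 0.39 for lysosomal membrane proteins, -1.83 for the ATF4 list and -0.79 for the cholesterol list, against 0.32, 0.37, -1.97 and -0.68 in AMPK KO. Medians of opposite sign were those of mitosis (0.14 in AMPK KO and -0.12 in WT), G1 genes (0.08 and -0.04), contractile genes (0.12 and -0.2) and immediate early genes (0.16 and -0.12). Those of p53 targets (-0.25 and -0.58) and of interferon genes (0.26 and 0.43) also lay apart, and the differences between medians were not tested.

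The endoplasmic reticulum list held the most members called for the interaction among the 30 lists, with 18 of 26, all 18 above WT, against 7.07% of all genes. Its median log2 fold change was -0.42 in AMPK KO and -0.87 in WT. Hspa5, the main chaperone of this compartment, was at 1014, 917, 929.6 and 1006 CPM with DMSO at passages 16 to 19 and at 356, 412, 373 and 381 CPM with torin1, and in WT at 1675 ± 111 and 425 ± 65.9 CPM (SD, n = 4 each). The difference of the log2 fold changes was 0.64 (adjusted p = 0.00066). Hyou1, a partner of Hspa5, was at 308 ± 6.68 and 174 ± 8.85 CPM in AMPK KO and at 594 ± 25.5 and 222 ± 18.1 CPM in WT. The DMSO mean of AMPK KO was below that of WT in 23 of the 26 members and in all 18 called, and the part of this starting level in the result was not tested. Of the 18, 13 were lower with torin1 in both genotypes and 3 in WT alone. Against a test for a change beyond 1.2-fold, 6 of the members were called.

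**Figure D5:**
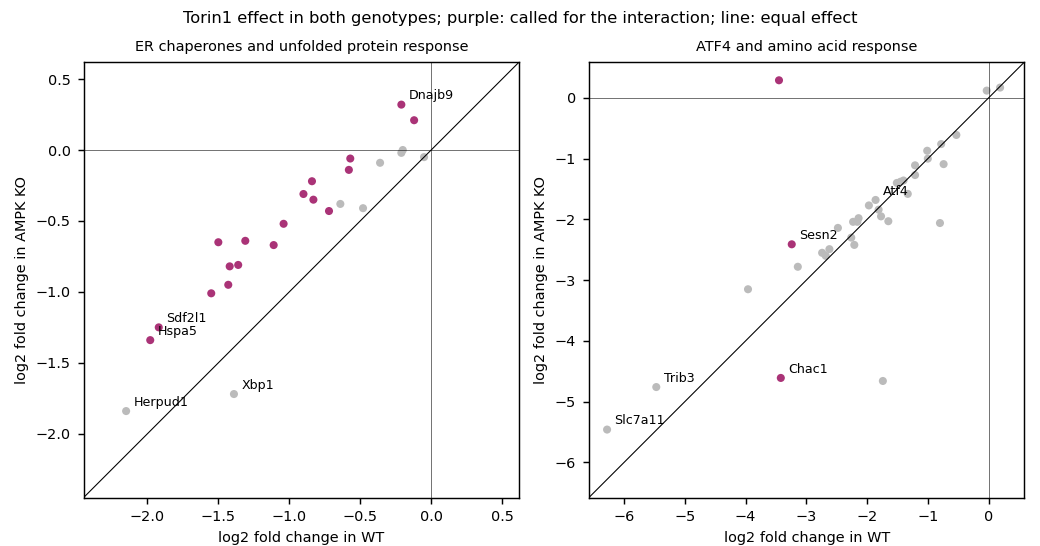
Log2 fold change of torin1 over DMSO in AMPK KO (vertical axis) against that in WT (horizontal axis) for the endoplasmic reticulum list and the ATF4 list, with a line of equality and genes called for the interaction in purple. In the endoplasmic reticulum list the 18 called genes lie above the line, whereas 3 of the ATF4 list are called, 2 above and 1 below.

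Single genes also differed between the genotypes. Ddit4 fell less in AMPK KO than in WT (-2.87 and -4.31, difference 1.44, adjusted p = 0.0001), as did Sesn2 (-2.41 and -3.24), and Chac1 fell more (-4.61 and -3.42, difference -1.19, adjusted p = 0.0034). Fnip1 rose more than in WT (1.37 and 0.88, difference 0.49, adjusted p = 0.044), while the differences of Flcn (0.3, adjusted p = 0.085), Hexa (-0.07) and Ctsa (0.11) were not called. Tfeb fell in AMPK KO and was not called in WT (log2 fold changes -0.46 and 0.06, difference -0.52, adjusted p = 0.018). Differences were ranked among genes called for the interaction and also in AMPK KO, with at least 5 CPM on average. Genes called for the interaction but not in AMPK KO were left out. Of those ranked, the largest differences above WT were those of Ddit4, Tnfaip2 (1.36) and Lmx1b, a homeobox factor (1.15). The largest below were those of Megf6 (-2.11), Bmyc (-1.7) and Adra1b, an adrenergic receptor (-1.35). Bmyc was at 20.2, 17.6, 19.2 and 19.2 CPM with DMSO and at 28.6 ± 1.03 CPM with torin1 in AMPK KO, and at 0.496 ± 0.13 and 2.47 ± 0.194 CPM in WT. Megf6 fell in AMPK KO (34.0 to 43.2 CPM with DMSO and 17.5 to 19.6 CPM with torin1), was near 0 in WT (0.187 ± 0.141 and 0.386 ± 0.296 CPM, not called), and its difference was not called without WT torin1 replicate 2 (-1.41, adjusted p = 0.14) or without WT DMSO replicate 4 (-1.72, adjusted p = 0.053). In the list of mitosis genes, 11 of 43 were called above WT, where 7.07% of all genes were called in either direction. The number above WT ranged from 0 to 13 over the alternatives. Mitosis was not alone in this. Of p53 targets 6 of 20 were above WT, of immediate early genes 7 of 26 and of HIF1 targets 4 of 15, with 0 below in each. These numbers ranged from 0 to 10, 3 to 11 and 1 to 4. Of 48 DNA replication genes, 7 were below WT (0 to 9 over the alternatives) and 0 above.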

How the data were processed

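Poly(A) RNA was sequenced as paired-end reads in all libraries. The authors processed the reads with nf-core/rnaseq, STAR and Salmon on GRCm38. In the deposited gene table are estimated counts, not normalized and in part not whole. The deposited transcript tables hold estimated counts and TPM, which the authors' pipeline scales for length and depth, and TPM were summed per gene here. The study's methods name a removal of batch effects without the batch. Every library has 1 and the same batch label, so nothing was removed here. The columns of the gene table were matched to libraries by their labels.

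Estimated counts were rounded, low genes removed (filterByExpr), libraries scaled (TMM), and quasi-likelihood models with 6 group means fitted to all 24 libraries (edgeR 4.0.16, R 4.3.3). Tests were two-sided, adjusted by Benjamini-Hochberg over 15828 genes, and calls needed an adjusted p under 0.05 with at least a 1.2-fold change. Log2 fold changes and SE come from the same models. The biological coefficient of variation common to all genes was 0.079, and totals of the 8 AMPK KO libraries compared were 29626094 to 32383609. Pairs of replicates differed by more than counting noise (chi-square per degree of freedom 3.97 to 18.9). Groups came from the labels.

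The genes, lists and tests were chosen with earlier results of these data known. Named by rule were regulators and genes measured by the study, the 8 largest rises and falls with a mean of at least 5 CPM and no overlap, the 2 largest rises and falls of each list, the 3 largest differences from WT in each direction, and the 4 largest gains and losses in TPM. Differences from WT were ranked among genes called both for the interaction and for torin1 in AMPK KO, with a mean of at least 5 CPM. In the rankings over all genes, gene models, RIKEN clones, pseudogenes, mitochondrially encoded genes and clustered protocadherins were passed over. A few genes that the rule names or that were measured are not reported here. Other members of the lists and Hspa5 and Hyou1 were named after their values were seen. Promoter letters were searched on both strands in RefSeq tables, in the 250 bases before each start. Tried as alternatives were scaling by DESeq2's size factors or by library size alone, a stricter or no filter, unrounded counts, a length offset, blocks, fewer libraries in the fit, other thresholds, DESeq2 1.42.0, and fits with 1 library left out at a time.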

Additional observations from a re-analysis of the deposited data

Results flagged for a closer look

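In 15 of 280 groups of 4 libraries (5.36%), 1 library stood apart from the other 3 by more than Dixon's 95% critical value, and chance gives this in about 1 of 20 groups. The clearest case was CT010467.1 in the DMSO library of passage 19, at 6329 CPM with the next library at 736 CPM. Among the DMSO libraries, the other values apart were Fnip1 at passage 16 (25.7 CPM, the next library at 20.7 CPM), Irs2 at passage 18 (60.5 CPM, the next library at 68.1 CPM), Mturn at passage 16 (3.91 CPM, the next library at 2.76 CPM), Trp53inp2 at passage 17 (24.8 CPM, the next library at 28.9 CPM) and Atg4a at passage 18 (11.2 CPM, the next library at 12.0 CPM). Further such values were Cars at passage 18 (231 CPM, the next library at 215 CPM), Kdm3a at passage 17 (37.5 CPM, the next library at 34.0 CPM), Gnl2 at passage 17 (97.0 CPM, the next library at 91.5 CPM) and Pole at passage 16 (143 CPM, the next library at 133 CPM). Among the torin1 libraries they were Tfe3 at passage 16 (63.2 CPM, the next library at 67.3 CPM), Srebf2 at passage 16 (207 CPM, the next library at 228 CPM), Pdcd4 at passage 16 (108 CPM, the next library at 111 CPM), Osgin1 at passage 19 (4.43 CPM, the next library at 4.85 CPM) and Aen at passage 18 (21.8 CPM, the next library at 23.4 CPM).

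For 19 named genes, the log2 fold change of torin1 differed between AMPK KO and WT in the edgeR test of the interaction. The difference, AMPK KO minus WT, was above 0 for Fnip1 (0.49), Ddit4 (1.44), Sesn2 (0.84), Kdm3a (0.33), Pdcd4 (0.5), Dnajb9 (0.53), Dusp6 (1.03), Lmx1b (1.15) and Tnfaip2 (1.36). It was below 0 for Tfeb (-0.52), Foxo3 (-0.33), Chac1 (-1.19), Eno2 (-0.58), Pole (-0.32), Mrpl34 (-0.42), Osgin1 (-0.63), Megf6 (-2.11), Bmyc (-1.7) and Adra1b (-1.35). Genotype, line and passage cannot be told apart in these differences. Only those of Ddit4, Lmx1b, Tnfaip2, Megf6, Bmyc and Adra1b were followed gene by gene over the alternatives.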

How the results depend on the processing

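The number of genes called in AMPK KO stayed within 1.5 times the reported 6879 under every alternative except a fold limit of 1.5, which gave 3146 (2170 higher and 976 lower). It was 6754 in DESeq2, 6962 from the compared libraries alone, 5813 with at least 10 counts in every library, 9047 by adjusted p alone, and 6462 to 7036 with 1 library left out. A test against a 1.2-fold change left 1841 genes lower. The share of called genes that were higher ranged from 51.9% (without AMPK KO DMSO replicate 4) to 68.0% (library size alone), against 59.5% as reported. In WT, a 1.5-fold limit gave 3855 genes. For the interaction, 305 genes were called at a 1.5-fold limit, 101 in a test against a 1.2-fold change and 1861 with a block for passage, against 1119. With a block, 7251 genes were called in AMPK KO for passage (4349 higher, 2902 lower) and 6868 for the replicate number of the titles. Deviations of libraries of the same passage from their group means had correlations of 0.139, 0.205, 0.105 and -0.011 at passages 16 to 19. Between libraries of different passages these correlations ran from -0.138 to 0.047, below those of passages 16 to 18. Libraries of passages 16 to 18 were thus weakly alike between the groups, which the main fit does not model. The block is given only here and for Mitf.

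Over the single genes named by rule, 2906 of 2975 values under an alternative kept their side of the threshold, 59 lost the call and 10 gained it. These values include the difference from WT only for Ddit4, Lmx1b, Tnfaip2, Megf6, Bmyc and Adra1b. Of the values called in the main fit, 0 changed direction. For values not called there, the direction was not checked. CT010467.1 lost its call without AMPK KO DMSO replicate 1 (-0.19, adjusted p = 0.39). With 1 AMPK KO library left out, calls were lost in 5 cases for Srebf1 (lowest log2 fold change 0.18), 4 each for Qars (0.2), Flna (0.23) and Actg1 (0.2), 5 for Dnajb9 (0.24) and 3 for Adra1b (nearest to 0, -0.51), and in 1 case each for Psmb10 (-0.3, without torin1 replicate 1) and Tpm1 (-0.24, without torin1 replicate 1). Rptor gained a call in 9 cases, among them DESeq2 (-0.27). The causes were not tested. Depth limits the precision of genes with a few counts per library. Srebf1 and Qars held at least 3252 and 4098 counts in each AMPK KO library compared.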
